A study of Homo sapiens with 6 samples.

Results

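The genes described here are 10 members of the ADAM and ADAMTS metalloproteinase families, ADAM8, ADAM9, ADAM10, ADAM12, ADAM15, ADAM17, ADAM19, ADAMTS1, ADAMTS6 and ADAMTS9, taken by gene symbol from tables of 53826 gene entries. RNA from A549 cells, a human lung adenocarcinoma line, was sequenced in 6 libraries, 3 of the A549-TIPARP line and 3 of the A549-GFP line. A549-TIPARP cells stably overexpress TIPARP, a mono-ADP-ribosyltransferase, from a pMXs retroviral vector, and the control A549-GFP cells carry GFP in the same vector. The libraries of a line are numbered by experiment, and whether they came from separate cultures is not stated, so p-values measure only the spread between these libraries. Values are TPM, the length-corrected share of a library's transcripts, deposited on a log2 scale in which every value below 1 TPM was listed as 0. TPM keeps no record of the number of reads, so the depth is unknown and no counting error is given. Values of a line are given in the order of replicates 1, 2 and 3.

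ADAM proteases are zinc-dependent enzymes anchored in the plasma membrane. Many of them are sheddases, which cut the outer part off other membrane proteins such as growth factors, adhesion molecules and receptors. ADAMTS proteases are their secreted relatives, which carry thrombospondin repeats and cleave matrix proteins such as versican and other proteoglycans. Both kinds are made as inactive precursors, and in epithelial tumor cells they are best known for releasing ligands of the EGF receptor and for loosening cell contacts and matrix.

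TIPARP itself lay at 3.68 to 11.4 TPM in the control line and at 90.5 to 131 TPM in the overexpressing line, the direction the labels give. All 6 epithelial markers looked for, EPCAM, KRT8, KRT18, KRT19, CDH1 and CLDN4, were detected in every library. KRT19 was at 4.57, 2.54 and 5.36 TPM with GFP and at 19.2, 19.0 and 10.9 TPM with TIPARP, and its libraries did not overlap (limma adjusted p = 0.283). The libraries of the other markers overlapped between the lines, and their differences in log2(TPM + 1) were 0.55 for CLDN4, 0.34 for KRT18, 0.28 for KRT8, 0.026 for CDH1 and -0.29 for EPCAM. Those of KRT18 and KRT8 turned to -0.13 without A549-GFP replicate 2. All 5 endothelial markers looked for were at the floor of 1 TPM in all 6, and so were 4 of 6 fibroblast markers. COL1A1, the only fibroblast marker above 2 TPM, was at 1.44, 1 and 1.31 TPM with GFP and at 1.85, 1.64 and 2.56 TPM with TIPARP, and it entered the analysis only through A549-TIPARP replicate 3. Of 5 blood cell markers PTPRC and CD3E were at the floor in all 6 libraries. CD68, LYZ and CD14 were above 2 TPM in at least 1 library of each line, with differences of -0.42, 0.46 and 0.52, and CD14 was at the floor in A549-GFP replicate 1. Without A549-GFP replicate 2 these differences were -0.017, 0.68 and 1.0. The part of these marker differences in the results was not tested. A549-GFP replicate 2 stood apart from the other libraries. The root mean square of its deviations from the line mean was 0.621 on the log2 scale across the 13181 analysed genes, against 0.185 to 0.40 in the other libraries, and it held the highest value of the 6 libraries for 52.0% of genes. Among the 13181 genes, those with more than 2 TPM in at least 1 library, the linear model of limma called 2 genes, or 0.0152%, at an adjusted p-value under 0.05.

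Of the 10 genes, 7 passed the limit of 2 TPM and 3 did not. ADAM19, which sheds neuregulins, and the secreted proteases ADAMTS1 and ADAMTS6 were listed at 0 in all 6 libraries. They lie on chromosome 5 (157395534 to 157575775, minus strand), chromosome 21 (26835755 to 26845409, minus strand) and chromosome 5 (65148738 to 65481920, minus strand) of hg38, the build the authors named. These 3 genes were thus at or under 1 TPM in both lines, and no fold change can be given for them. Of the members chosen, ADAMTS9 was the only ADAMTS gene above the limit.

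The 7 expressed genes fell into a high and a low tier. ADAM9, ADAM15, ADAM10 and ADAM17 lay between 26.6 and 142 TPM in every library, while ADAMTS9, ADAM12 and ADAM8 lay between 1.65 and 6.70 TPM. The 4 genes of the high tier made up from 94.9% to 97.0% of the summed TPM of the 7 genes, which ranged from 218 to 307 TPM per library. ADAM9 alone took from 38.8% to 47.7% of that sum. ADAM9 was above ADAM15, ADAM10 above ADAM17 and ADAM17 above ADAMTS9 in all 6 libraries, with no overlap of their ranges. ADAM15 exceeded ADAM10 in 5 of 6 libraries and ADAM12 exceeded ADAM8 in 2 of 6, so the order within these pairs is not separated from the spread between libraries. Among all analysed genes, 8.25% had a mean TPM above that of ADAM9, 16.5% above that of ADAM15, 20.6% above that of ADAM10 and 31.0% above that of ADAM17. For ADAMTS9, ADAM12 and ADAM8 these shares were 74.6%, 86.9% and 88.0%.

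**Figure D1:**
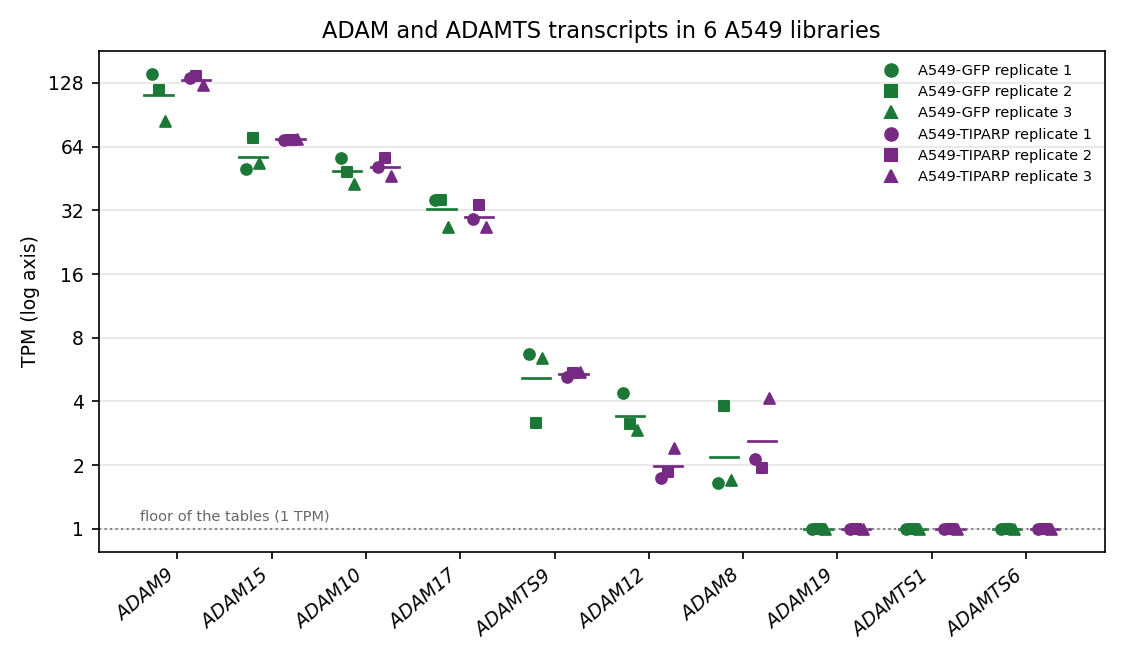
TPM on a log axis (base 2) of the 10 ADAM and ADAMTS genes in the 3 A549-GFP libraries and the 3 A549-TIPARP libraries, with 1 symbol per library and a bar at the geometric mean of each line. The 4 genes on the left lie above 26 TPM in every library, the next 3 lie under 7 TPM, and ADAM19, ADAMTS1 and ADAMTS6 sit on the floor of 1 TPM. ADAM12 is the one gene whose symbols do not overlap between the lines.

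RefSeq promoter windows, running from 250 bases before to 50 bases after the start of transcription on GRCh38.p14, were matched for 7 of the 10 genes, all but ADAM9, ADAMTS1 and ADAMTS9. Those of 4 genes are shown with each CpG dinucleotide in capitals, because they cover the high tier (ADAM15 and ADAM17), the low tier (ADAM12) and a gene at the floor (ADAMTS6). The windows are chr1:155051066-155051365 on the plus strand for ADAM15, chr2:9555781-9556080 on the minus strand for ADAM17, chr10:126388428-126388727 on the minus strand for ADAM12 and chr5:65481871-65482170 on the minus strand for ADAMTS6.
ADAM15: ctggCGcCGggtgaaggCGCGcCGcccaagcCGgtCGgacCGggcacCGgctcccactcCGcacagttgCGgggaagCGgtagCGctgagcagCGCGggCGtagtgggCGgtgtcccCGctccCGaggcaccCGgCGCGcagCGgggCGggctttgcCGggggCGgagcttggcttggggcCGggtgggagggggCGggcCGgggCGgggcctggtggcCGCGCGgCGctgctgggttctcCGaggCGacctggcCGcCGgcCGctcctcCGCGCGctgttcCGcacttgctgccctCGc
ADAM17: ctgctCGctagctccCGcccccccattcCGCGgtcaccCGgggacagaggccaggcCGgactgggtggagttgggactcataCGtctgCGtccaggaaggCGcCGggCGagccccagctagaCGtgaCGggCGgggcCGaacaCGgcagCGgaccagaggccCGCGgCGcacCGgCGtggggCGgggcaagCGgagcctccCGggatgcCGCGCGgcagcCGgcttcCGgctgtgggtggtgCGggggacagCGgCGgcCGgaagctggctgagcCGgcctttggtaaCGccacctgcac
ADAM12: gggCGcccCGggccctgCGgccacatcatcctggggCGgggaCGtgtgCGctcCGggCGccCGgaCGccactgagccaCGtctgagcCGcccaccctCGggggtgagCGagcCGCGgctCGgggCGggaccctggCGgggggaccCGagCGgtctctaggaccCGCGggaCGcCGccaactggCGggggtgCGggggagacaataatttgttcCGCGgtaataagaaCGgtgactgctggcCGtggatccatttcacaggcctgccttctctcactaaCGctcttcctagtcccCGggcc
ADAMTS6: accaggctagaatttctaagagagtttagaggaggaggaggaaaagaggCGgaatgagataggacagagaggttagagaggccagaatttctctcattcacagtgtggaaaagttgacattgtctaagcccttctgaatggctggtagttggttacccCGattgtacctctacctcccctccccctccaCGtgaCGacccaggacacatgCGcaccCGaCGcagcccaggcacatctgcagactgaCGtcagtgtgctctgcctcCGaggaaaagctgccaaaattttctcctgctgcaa
The window of ADAM15 holds 44 CpG, that of ADAM17 36, that of ADAM12 33 and that of ADAMTS6 only 9. ADAM10 has 30 CpG and ADAM8 29, while ADAM19, also at the floor, has 26. The median was 26 CpG over 10344 windows of analysed genes and 5 over 16961 windows of other genes, with 1 window per gene. A CpG-rich window was therefore shared by members of both tiers and by ADAM19. The letters GCGTG, the core of the binding site of the aryl hydrocarbon receptor, occur on either strand in the windows of ADAM10, ADAM17 and ADAM19, once each, and not in those of ADAM8, ADAM12, ADAM15 or ADAMTS6. They occur in 50.9% of the windows of analysed genes and in 36.3% of all windows, against 3 of 7 here.

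To compare the lines, the difference in log2(TPM + 1) was tested for all 13181 genes with limma, and the adjusted p-values are those of Benjamini and Hochberg over all of them. No adjusted p-value of the 7 genes was under 0.05, none was more than 2-fold apart, and 1 of 7 had an unadjusted p-value under 0.05, ADAM12, on the lower side. Of all genes, 3.85% had an unadjusted p-value under 0.05, 0.88% had one with a lower value in A549-TIPARP cells and 2.97% with a higher value, while 1.53% were higher and 0.432% were lower by more than 2-fold. The mean was higher in A549-TIPARP cells for 5 of the 7 genes, against 39.6% of all genes. Without A549-GFP replicate 2 it was higher for 4 of 7 and for 57.4% of all genes. With median-ratio rescaling the share of all genes was 49.4% and that of the members remained 5 of 7.

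ADAM12 (Entrez Gene ID 8038) encodes meltrin alpha, made as a membrane-bound and as a secreted splice form, which cleaves insulin-like growth factor binding proteins and heparin-binding EGF. It lies on chromosome 10 from 126012381 to 126388477 on the minus strand, and its canonical transcript has 23 exons. The A549-GFP libraries gave 4.38, 3.14 and 2.93 TPM and the A549-TIPARP libraries 1.74, 1.85 and 2.42 TPM. Every A549-TIPARP library was below every A549-GFP library, a separation found in this direction for 3.54% of all genes and in either direction for 8.91%. The mean log2 TPM was 1.78 ± 0.31 (SD, n = 3) in A549-GFP cells and 0.99 ± 0.25 (SD, n = 3) in A549-TIPARP cells, a 1.73-fold difference. In log2(TPM + 1) the difference was -0.57, with a 95% interval from -1.09 to -0.05 (limma adjusted p = 0.994). Leaving out any 1 library gave differences from -0.67 to -0.43. The unadjusted p-value was no longer under 0.05 without A549-GFP replicate 1, without A549-TIPARP replicate 1 or without A549-TIPARP replicate 2. With a block for the replicate number it was 0.0703 (limma). The values are per gene, so the splice forms were not told apart.

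Of the high tier, ADAM9 and ADAM15 had the larger differences. ADAM9 (Entrez Gene ID 8754), a sheddase of heparin-binding EGF that also binds integrins, lies on chromosome 8 from 38996754 to 39105445 on the plus strand. The A549-GFP libraries gave 142, 118 and 84.8 TPM and the A549-TIPARP libraries 135, 138 and 125 TPM. The lines overlapped through A549-GFP replicate 1, which was the highest of the 6. The difference was 0.24 in log2(TPM + 1), with a 95% interval from -0.24 to 0.71 (limma adjusted p = 0.994). Without A549-GFP replicate 3 it was 0.04 and without A549-GFP replicate 1 it was 0.40, so its size rests on these libraries. With a correction for the GC content of transcripts, chosen after seeing the data, it was 0.39, with an unadjusted p-value under 0.05 and an adjusted one above it. With this correction 4.31% of all genes had an unadjusted p-value under 0.05 on the higher side. When the replicate block was added to it, the unadjusted p-value of ADAM9 was 0.068 (limma).

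ADAM15 (Entrez Gene ID 8751), or metargidin, whose disintegrin domain carries an integrin-binding RGD motif, lies on chromosome 1 from 155050566 to 155062775 on the plus strand, where it overlaps DCST1 on the same strand. Its levels were 50.3, 70.6 and 53.4 TPM with GFP and 69.1, 69.1 and 69.9 TPM with TIPARP. The A549-TIPARP libraries were nearly equal and lay above A549-GFP replicates 1 and 3 but below A549-GFP replicate 2. The mean log2 TPM was 5.84 ± 0.26 (SD, n = 3) in A549-GFP cells and 6.12 ± 0.0096 (SD, n = 3) in A549-TIPARP cells. The difference was 0.27 in log2(TPM + 1), with a 95% interval from -0.15 to 0.69 (limma adjusted p = 0.994). When the library that stood apart, A549-GFP replicate 2, was left out, it was 0.41, with an unadjusted p-value under 0.05 and a limma adjusted p-value of 0.297. With that library left out, 9.3% of all genes had an unadjusted p-value under 0.05 on the higher side and 1.16% on the lower side.

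ADAM10 and ADAM17 are the main sheddases of most cells. ADAM10 cuts Notch receptors, amyloid precursor protein, CD44 and cadherins, and ADAM17 releases tumor necrosis factor and several ligands of the EGF receptor. ADAM10 (Entrez Gene ID 102) lies on chromosome 15 from 58588809 to 58749791 on the minus strand. It stood at 56.9, 48.6 and 42.6 TPM in the A549-GFP libraries and at 51.1, 56.4 and 46.6 TPM in the A549-TIPARP libraries, so the lines overlapped. ADAM17 (Entrez Gene ID 6868) lies on chromosome 2 from 9488486 to 9556732 on the minus strand and overlaps IAH1 on the other strand. It stood at 35.8, 35.8 and 26.6 TPM with GFP and at 29.0, 33.8 and 26.6 TPM with TIPARP, which also overlapped. The difference was 0.06 for ADAM10, with a 95% interval from -0.36 to 0.48, and -0.13 for ADAM17, with an interval from -0.59 to 0.34 (limma adjusted p = 0.995 and 0.994). On the fold scale these intervals run from 0.779 to 1.40 for ADAM10 and from 0.665 to 1.26 for ADAM17, so larger changes of the TPM + 1 lie outside them. The difference of ADAM10 turned to -0.037 without A549-GFP replicate 3 and to -0.0060 without A549-TIPARP replicate 2. The sign for ADAM17 is not settled either, since the GC correction moved its difference to 0.0115, and with 1 library left out it ran from -0.26 to -0.051.

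ADAMTS9 and ADAM8 differed more between libraries of a line than between the lines. ADAMTS9 (Entrez Gene ID 56999), a secreted protease that cleaves versican, lies on chromosome 3 from 64515654 to 64688000 on the minus strand. The A549-GFP libraries gave 6.70, 3.16 and 6.41 TPM and the A549-TIPARP libraries 5.23, 5.43 and 5.53 TPM. The A549-TIPARP values lay within the A549-GFP values, of which replicate 2 was the lowest. The difference of 0.05 in log2(TPM + 1) had a 95% interval from -0.59 to 0.68 (limma adjusted p = 0.998) and became -0.24 without A549-GFP replicate 2. ADAM8 (Entrez Gene ID 101), a protease best known from leukocytes, lies on chromosome 10 from 133262420 to 133276868 on the minus strand. It stood at 1.65, 3.79 and 1.69 TPM with GFP and at 2.14, 1.95 and 4.16 TPM with TIPARP, with the highest values in A549-GFP replicate 2 and A549-TIPARP replicate 3. Its difference was 0.16, with a 95% interval from -0.58 to 0.90 (limma adjusted p = 0.994), became -0.09 without A549-TIPARP replicate 3, and was 0.44 without A549-GFP replicate 2.

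**Figure D2:**
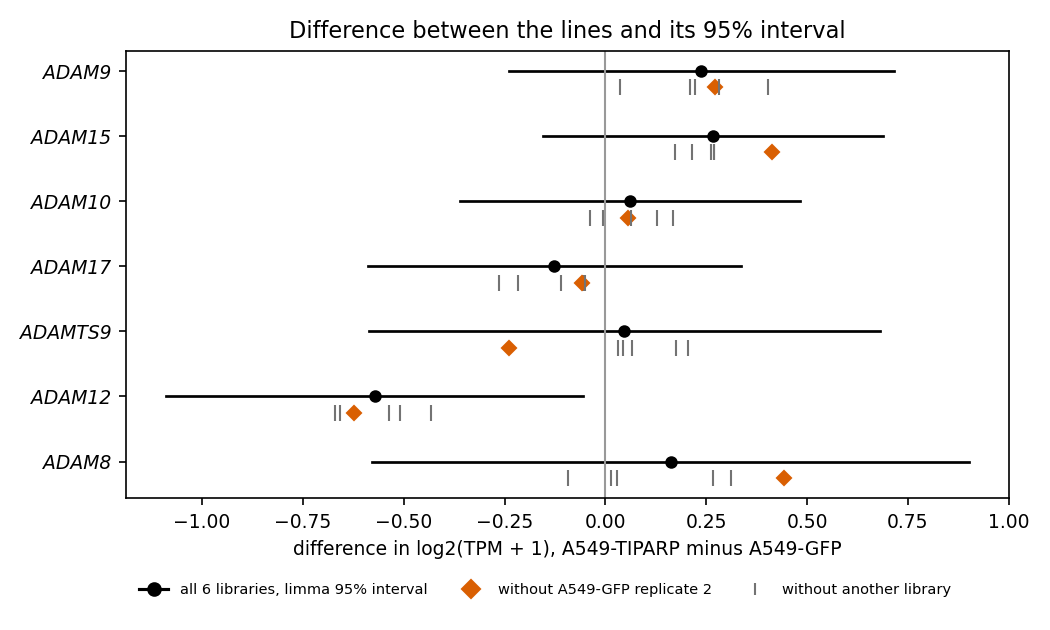
Difference in log2(TPM + 1), A549-TIPARP minus A549-GFP, of the 7 analysed genes, with the limma 95% interval from all 6 libraries (black) and the difference with 1 library left out (marks under each line, orange for A549-GFP replicate 2). The interval of ADAM12, from -1.09 to -0.05, is the only one that leaves out 0, and the mark of ADAMTS9 without A549-GFP replicate 2, at -0.24, falls on the other side of 0 from the value with all libraries.

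Ratios of the genes within a library do not depend on how the library is scaled. Of the 21 pairs among the 7 genes, the log2 ratio separated the lines without overlap in 7, against 12.5% of all pairs of genes above the floor in every library. Of these 7 pairs 4 contain ADAM12 and the other 3 contain ADAM17, and pairs that share a gene are not independent. The log2 ratio of ADAM10 to ADAM17 was 0.67, 0.44 and 0.68 in the A549-GFP libraries and 0.82, 0.74 and 0.81 in the A549-TIPARP libraries. All A549-TIPARP libraries were above all A549-GFP libraries, with means of 0.60 ± 0.13 (SD, n = 3) and 0.79 ± 0.04 (SD, n = 3). ADAM9 to ADAM17 gave 1.98, 1.72 and 1.67 with GFP and 2.22, 2.03 and 2.23 with TIPARP, and ADAM15 to ADAM17 gave 0.49, 0.98 and 1.0 against 1.25, 1.03 and 1.40. ADAM17 was thus the least abundant of the high tier in every library and was lower relative to each of the other three in every A549-TIPARP library. After the GC correction the line differences in log2(TPM + 1) were 0.39 for ADAM9, 0.21 for ADAM10, 0.21 for ADAM15 and 0.0115 for ADAM17, which narrows the gap of ADAM15 to ADAM17. The ratio of ADAM9 to ADAM10, in contrast, overlapped between the lines, with means of 1.20 ± 0.18 and 1.37 ± 0.07 (SD, n = 3). An exact permutation test (two-sided) of 3 libraries against 3 cannot give a p-value below 0.1, which is the value of each separated ratio, so none can pass 0.05.

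**Figure D3:**
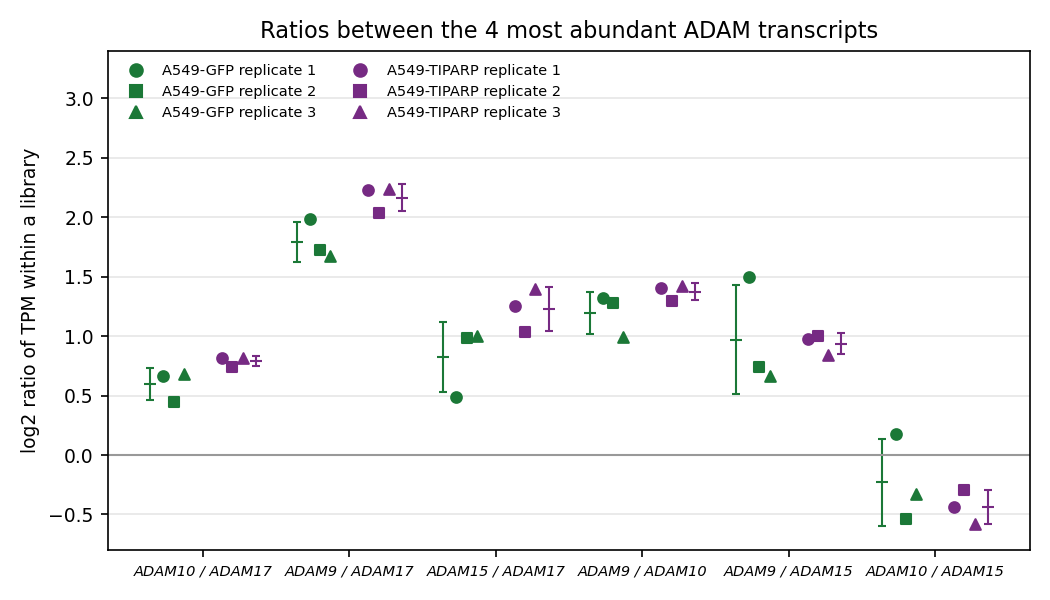
Log2 ratio of TPM within a library for the 6 pairs among ADAM9, ADAM10, ADAM15 and ADAM17, with 1 symbol per library and the mean with SD of each line (n = 3) beside them. The symbols of the lines are apart in the 3 pairs that contain ADAM17 and overlap in the 3 pairs that do not.

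The other ADAM, ADAMTS and ADAMTSL genes of the tables were 42, of which 32 were at the floor in all 6 libraries and 8 were analysed. Of the 8, ADAMTSL4, ADAMTS13 and ADAMTS15 exceeded 2 TPM only in an A549-TIPARP library, so the limit itself favoured a higher mean with TIPARP for them. Among the 5 that exceeded it in both lines the mean was higher with TIPARP in all, against 39.5% of the 12262 genes over the limit in both lines. Without A549-GFP replicate 2 it was higher for all 5 and for 56.1% of those genes. Without A549-GFP replicate 3 it was higher for 4 of the 5 and for 3817 of the 12262. None of the 8 had an adjusted p-value under 0.05 (limma). Of the 5, ADAMTS7 had an unadjusted one on the higher side, against 2.43% of the genes over the limit in both lines, with a difference of 0.61 (95% interval from 0.02 to 1.21) that kept this in 9 of 15 alternatives. ADAMTS7 shares sequence with several pseudogenes, and how reads that match more than 1 gene were counted is not stated. ADAMTS10, which acts on fibrillin microfibrils, was the most abundant of the 8. The A549-GFP libraries gave 3.93, 38.3 and 6.02 TPM and the A549-TIPARP libraries 12.6, 11.5 and 31.1 TPM. As for ADAM8, A549-GFP replicate 2 and A549-TIPARP replicate 3 were the highest, and the difference of 0.67 was 1.58 without the first of these (limma adjusted p = 0.338), 0.24 without the second and 0.084 without A549-GFP replicate 1. The next by level were ADAMTSL5, with a difference of 0.22, and ADAM23, an ADAM without protease activity, with 0.26. Leaving out 1 library gave from 0.076 to 0.40 for ADAMTSL5 and from 0.048 to 0.41 for ADAM23.

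The partners that carry the sheddases to the cell surface, their activating proteases and their inhibitors were listed as 20 genes, of which 18 were analysed. TSPAN5 and TSPAN10 exceeded 2 TPM only with TIPARP. Of the other 16 the mean was higher with TIPARP for 12, against 39.5% of all genes over the limit in both lines, and RHBDF1 and TSPAN15 had an unadjusted p-value under 0.05, both higher, against 2.43% of those genes. None of the 18 passed an adjusted p-value of 0.05 (limma). The median difference of the 16 was 0.16 with all libraries, 0.30 without A549-GFP replicate 2 and, with replicate 3 of that line left out instead, -0.0027, where 8 of 16 were higher. For the 12262 genes over the limit in both lines these medians were -0.061, 0.036 and -0.16, and 3817 of them were higher in the last setting. RHBDF1 encodes iRhom1, an inactive rhomboid that escorts ADAM17 out of the endoplasmic reticulum. The A549-GFP libraries gave 8.51, 12.5 and 8.38 TPM and the A549-TIPARP libraries 17.2, 15.5 and 18.6 TPM. The lines did not overlap, as for 5.36% of all genes in this direction, and the difference was 0.76 (95% interval from 0.25 to 1.28, limma adjusted p = 0.856). Its unadjusted p-value was under 0.05 in all 15 alternatives run, and its adjusted p-value was at least 0.225 in each. Of the 16, 3 had all A549-TIPARP libraries above (RHBDF1, RHBDF2 and RECK) and 1 had them below (FRMD8). Among the 12262 genes over the limit in both lines 561 had them above and 430 below. RHBDF2 encodes iRhom2, FRMD8 stabilises both iRhoms, and RECK is a membrane-anchored inhibitor of metalloproteinases. These genes other than RHBDF1 were picked after seeing their values. RHBDF2 ranged from 21.3 to 22.8 TPM in A549-GFP cells and from 24.3 to 24.6 TPM in A549-TIPARP cells. FRMD8 ranged from 21.5 to 26.3 TPM and from 16.8 to 21.0 TPM, on the lower side. RECK ranged from 2.45 to 3.16 TPM and from 3.28 to 3.51 TPM. The differences of RHBDF2, FRMD8 and RECK were small, 0.14, -0.28 and 0.20, with unadjusted limma p-values above 0.05.

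ADAM10 is escorted by tetraspanins of the C8 group, of which 6 are in the list. TSPAN15 was at 71.0, 122 and 54.9 TPM with GFP and at 139, 106 and 128 TPM with TIPARP, with overlap through A549-GFP replicate 2. Its difference of 0.65 (limma adjusted p = 0.994) became 0.97 without that library (adjusted p = 0.225) and 0.40 without A549-GFP replicate 3, and its unadjusted p-value was under 0.05 in 5 of 15 alternatives. TSPAN5 was at 1.02, 1.31 and 1 TPM with GFP, the last of these being the floor, and at 2.05, 3.12 and 2.63 TPM with TIPARP, with a difference of 0.76 (95% interval from 0.27 to 1.25, limma adjusted p = 0.856). It entered the analysis only through its A549-TIPARP values. TSPAN14, among the 3 most abundant genes of the list, overlapped between the lines, with a difference of 0.01 and a 95% interval from -0.36 to 0.38. FURIN, singled out after its values were seen, encodes a protease that removes the inhibitory prodomain. It ran from 19.7 to 98.6 TPM in A549-GFP cells and from 28.3 to 73.4 TPM in A549-TIPARP cells. Of the tissue inhibitors of metalloproteinases, TIMP1 was the most abundant gene of the list, with 145, 584 and 185 TPM with GFP and 236, 226 and 282 TPM with TIPARP. Its difference of -0.02 rested on A549-GFP replicate 2, being 0.59 without it and -0.41 without A549-GFP replicate 1. TIMP3, the best inhibitor of ADAM17, was listed at 0 in all 6 libraries. Without A549-GFP replicate 2, 7 of the 16 partners over the limit in both lines had an unadjusted p-value under 0.05 on the higher side and none on the lower side, where 8.9% of all such genes had one on the higher side. Without A549-GFP replicate 3, 1 of the 16 had one on the higher side, against 2.28% of such genes.

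**Figure D4:**
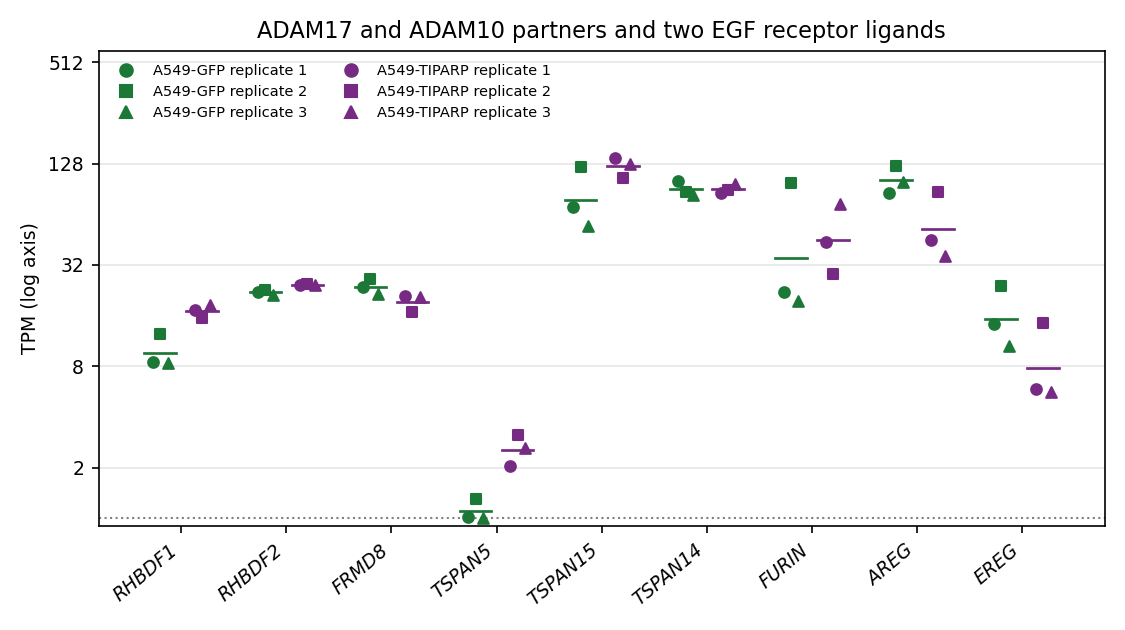
TPM on a log axis (base 2) of partners of ADAM17 (RHBDF1, RHBDF2, FRMD8), of ADAM10 (TSPAN5, TSPAN15, TSPAN14), of the activating protease FURIN and of the shed ligands AREG and EREG, with 1 symbol per library and a bar at the geometric mean of each line. RHBDF1 and TSPAN5 are higher in every A549-TIPARP library, while A549-GFP replicate 2 reaches or passes A549-TIPARP values for TSPAN15 and FURIN. TSPAN5 entered the analysis only through its A549-TIPARP values, so the limit favoured this direction for it.

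Among the shed ligands of the EGF receptor, 6 of 8 were analysed, of which BTC exceeded 2 TPM only in A549-GFP replicate 2, the highest library for all 6. The other 5 had a lower mean with TIPARP, as had 60.4% of all genes and 60.5% of those over the limit in both lines. Without that library 2 of the 5 were higher, against 56.1% of the genes over the limit in both lines. The median difference of the 5 was -0.19 with all libraries and -0.035 without A549-GFP replicate 2, and that of those genes was -0.061 and 0.036. AREG, amphiregulin, the classic ligand released by ADAM17, stood at 85.7, 124 and 99.4 TPM with GFP and at 45.2, 87.0 and 36.0 TPM with TIPARP. The lines overlapped, and the difference was -0.95 (95% interval from -1.68 to -0.23, limma adjusted p = 0.983). Without A549-GFP replicate 2 it was -0.81, with an unadjusted limma p-value no longer under 0.05, and it was under 0.05 in 11 of 15 alternatives. EREG, epiregulin, ranged from 10.5 to 23.8 TPM in A549-GFP cells and from 5.65 to 14.6 TPM in A549-TIPARP cells, with a difference of -0.87 (95% interval from -1.79 to 0.04, limma adjusted p = 0.994) and of -0.57 without A549-GFP replicate 2. TGFA, the next by level, had a difference of -0.13, which was 0.46 without A549-GFP replicate 2 and -0.62 when replicate 3 of that line was left out. Of the other 34 membrane substrates, 26 were analysed, with a median difference of -0.09 that became 0.10 without A549-GFP replicate 2. The median of all analysed genes went from -0.063 to 0.042 with the same library left out. None passed the adjusted threshold (limma), and none of the 24 that exceeded 2 TPM in both lines had an unadjusted p-value under 0.05. PTK7, which had 0 in every A549-GFP table and 1.86 to 2.34 TPM with TIPARP, had one but entered the analysis through 1 A549-TIPARP library. The most abundant, TNFRSF1A, APP and SDC1, had differences of 0.01, 0.31 and -0.18. Without A549-GFP replicate 2 these were -0.18, 0.70 and -0.14, and APP was at 0.059 without A549-GFP replicate 3.

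The 17 matrix substrates of ADAMTS proteases included 8 analysed genes, and ACAN, NID1, FBN1 and 6 others were at the floor in all 6 libraries. None of the 8 had an unadjusted limma p-value under 0.05. Without A549-GFP replicate 2, 2 of the 7 over the limit in both lines had one on the higher side, against 8.9% of such genes. VCAN, versican, the substrate shared by ADAMTS1 and ADAMTS9, ran from 27.9 to 59.0 TPM in A549-GFP cells and from 33.0 to 56.3 TPM in A549-TIPARP cells, with a difference of 0.05 and a 95% interval from -0.67 to 0.76, running from -0.19 to 0.34 with 1 library left out. TFPI2 and FN1, the others of high level, had differences of -0.18 and 0.47. That of FN1 ran from 0.081 without A549-TIPARP replicate 3 to 0.97 without A549-GFP replicate 2, and that of TFPI2 from -0.36 without A549-GFP replicate 3 to -0.0085 without A549-GFP replicate 2. FBLN1, a ligand and cofactor of ADAMTS1, was more than 2-fold apart by its means, with 35.0, 4.29 and 33.1 TPM in the A549-GFP libraries and 42.0, 40.8 and 30.7 TPM in the A549-TIPARP libraries. The difference of 1.05 was 0.14 without A549-GFP replicate 2, so it rested on that library.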

How the data were processed

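RNA-seq libraries were prepared with a stranded mRNA kit and sequenced as paired ends. The authors used Strand NGS with default settings to align reads to hg38 transcripts and deposited log2 values of TPM, 1 table per library. Its version, the annotation release, the use of strand and the handling of multiply matching reads are not given in the sources used here. Libraries were grouped and numbered from the sample titles. The members and gene lists were chosen with earlier results of these data known. Genes with TPM above 2 in at least 1 library were analysed, as in the study. Deposited values were turned back to TPM, and log2(TPM + 1) of all 6 libraries was fitted by limma 3.58.1 (R 4.3.3), with a trend in the variance and without a block, a step tested on simulated data. Fold changes and means with SD are on the deposited log2 scale, and limma differences on the log2(TPM + 1) scale understate changes of low genes. All 10 members are named. Of each list other than the cell type markers, the 3 genes of highest mean TPM and those more than 2-fold apart or with an unadjusted p-value under 0.05 are named. Genes outside this rule (RHBDF2, FRMD8, RECK, FURIN, TIMP3, TSPAN10, BTC, ADAMTSL4, ADAMTS13, ADAMTS15, ACAN, NID1, FBN1 and the markers described) were named after their values were seen. Marker genes of epithelial, fibroblast, endothelial and blood cells were listed as a check. Both lines carry the same experiment numbers, and whether equal numbers share a culture is not stated. Deviations of same-numbered libraries correlated with r = 0.415, -0.486 and -0.358 in experiments 1, 2 and 3. Deviations within a line depend on each other, so these values do not settle whether the libraries were paired. The main fit used no block, and a replicate block was run as an alternative. Alternatives were other pseudocounts and filters, rescaling, no variance trend, the replicate block, each library left out and, chosen after seeing the data, a correction for the GC content of GENCODE 44 transcripts (lowess, span 0.3, statsmodels 0.14.6). Gene positions are from GENCODE 44. Ratios were tested in scipy 1.17.1.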

Additional observations from a re-analysis of the deposited data

How the results depend on the processing

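Over the 15 alternatives, 4 to 6 of the 7 genes were higher on average with TIPARP, and none of the 7 had an adjusted p-value under 0.05 in any of them. ADAM12 stayed lower in all 15, with an unadjusted p-value under 0.05 in 10. With the pseudocount of 0.1 its difference was -0.76 and on the deposited values -0.79. The sign of ADAM17 turned, at 0.0115, with the GC correction, chosen after seeing the data, alone and with the replicate block, while ADAM10 went to 0.21 and ADAM9 to 0.39. With each library left out, ADAM10 ran from -0.0374 to 0.17, ADAM8 from -0.0931 to 0.44 and ADAMTS9 from -0.24 to 0.20. The count of all genes at an adjusted p-value under 0.05 went from 2 to 1 without the filter on TPM, with the replicate block and with the GC correction and the replicate block, and ran from 1 to 3 with each library left out. The replicate block left no member with an unadjusted p-value under 0.05 and changed no adjusted call among the members or the lists, while the unadjusted p-value of EREG went under 0.05 with it. Over genes above 2 TPM in both lines, the median difference of the other membrane substrates turned from -0.092 to 0.10 without A549-GFP replicate 2, and that of the partners from 0.16 to -0.0027 without A549-GFP replicate 3. The median of all 12262 such genes moved in the same directions, from -0.061 to 0.036 without A549-GFP replicate 2 and to -0.16 without A549-GFP replicate 3. Entries at the floor in all libraries have no variance and could not be fitted without the filter. The cause of these shifts was not tested. Depth cannot be judged from TPM, and the floor of 1 TPM limits what can be said of ADAM19, ADAMTS1, ADAMTS6, ADAM12 and ADAM8.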
